A study of Mus musculus with 4 samples.

Results

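The genes described here encode the cell-surface receptors and ectoenzymes through which microglia sense and clear extracellular nucleotides. They are the ATP-gated channel genes P2rx4 and P2rx7, the G protein-coupled nucleotide receptor genes P2ry2, P2ry6, P2ry12, P2ry13 and P2ry14, and the ectonucleotidase genes Entpd1 and Nt5e. The 9 genes were taken by symbol from a table of read counts per RefSeq transcript record, with the most abundant record standing for each gene, out of 23783 genes with a record. All 9 had a record, 8 had at least 1 count, and 5 had enough counts to be tested (P2rx4, P2ry2, P2ry6, P2ry13 and Entpd1).

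RNA-seq libraries came from BV-2, an immortalised mouse microglial cell line, either treated with lipopolysaccharide (LPS, the outer membrane glycolipid of Gram-negative bacteria) at 10 ng/ml for 4 h or kept as 4 h controls, with 2 libraries per group. All 4 libraries are from this 1 line, so nothing in them represents microglia of a brain, and the growth text also describes shaken mixed glial cultures although every sample is labelled as the line. Whether libraries of a group are separate cultures is not stated in the labels, so the p-values rest on a spread between samples that may be only technical.

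Extracellular ATP and UTP are set free by stressed or activated cells. ATP opens P2X channels, and both nucleotides engage P2Y2. Their breakdown products ADP and UDP act on P2Y12 and P2Y13 and on P2Y6, and UDP-glucose acts on P2Y14. Entpd1 (CD39) strips phosphates from ATP and ADP, and Nt5e (CD73) turns the remaining AMP into adenosine, which has receptors of its own. In microglia P2Y12 guides process movement towards injury, P2Y6 is known for phagocytosis, and P2X7 for triggering the inflammasome and interleukin-1 beta release.

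Library totals ran from 3082538 to 3368693 counts in LPS libraries and from 2778686 to 3059196 in controls, and 5 abundant records took 53.4% to 67.5% of each. The libraries have no molecular identifiers, so the floors and the interval of the P2ry12 rate ratio cover counting error only. Intervals of log2 fold changes come from the edgeR fit, which also estimates the spread between libraries. The control libraries differed from each other more than the LPS libraries did. Over tested records other than the 5 most abundant, chi-square per degree of freedom was 1.87 for the LPS pair and 7 for the control pair. The log2 ratio of library 2 to library 1 went with transcript GC content at Spearman's rho -0.267 in the LPS pair and -0.662 in the control pair (across 6956 records, which are not independent replicates). Of 20 microglia and macrophage marker genes 16 had counts and 8 were tested, and their summed level was 3945 and 3955 normalised counts in LPS libraries and 3655 and 3317 in controls. Spi1, which encodes the myeloid factor PU.1, was the 1 marker that passed the test (fold 2.22, adjusted p 0.00391 in edgeR's quasi-likelihood test). It had 1120 and 1130 normalised counts in LPS libraries and 579 and 438 in controls, a larger difference than that of the sum. Of the 8 tested markers, 3 had a positive and 5 a negative log2 fold change, with a median of -0.2. Sall1 and Siglech, markers of resident microglia with 1 record each, were at 0 in every library. Marker sums of astrocytes, neurons, the oligodendrocyte lineage, and T cells and granulocytes stayed between 0 and 2.81 normalised counts in every library, with 6 of 8, 5 of 6, 5 of 6 and 3 of 4 genes at 0. The endothelial sum of 363.8 and 386 after LPS and 459 and 444 in controls came almost wholly from Kdr, with Cldn5 and Pecam1 at 0. Genes with several records, which had low counts throughout the table, included 2 astrocyte, 4 neuron, 3 oligodendrocyte lineage and 1 granulocyte marker. Their zeros cannot be told apart from uncounted reads. The same holds for Pecam1 and the macrophage genes Itgam and Ctss, with 2 records each and 0 counts in every library.

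The promoters below are those of P2ry2, P2ry13, P2ry12, P2rx4 and Entpd1. Of these genes, P2ry2 was higher after LPS and passed the reported test, though not in every setting. The ADP receptor genes P2ry13, which did not pass, and P2ry12, which was not tested, had lower counts after LPS. The channel gene P2rx4 and the ectoenzyme gene Entpd1 showed little difference. Each promoter is the 250 bases before a transcript start from RefSeq on GRCm38.p6, the assembly behind mm10. The start is that of the GENCODE transcript matched to the counted record, or, for P2ry12, that of the RefSeq gene. Capitals mark matches to GAGGAA, the core recognised by PU.1, or, in P2ry12, to the NF-kB motif.
P2ry2 promoter, chr7:101011999-101012248, minus strand: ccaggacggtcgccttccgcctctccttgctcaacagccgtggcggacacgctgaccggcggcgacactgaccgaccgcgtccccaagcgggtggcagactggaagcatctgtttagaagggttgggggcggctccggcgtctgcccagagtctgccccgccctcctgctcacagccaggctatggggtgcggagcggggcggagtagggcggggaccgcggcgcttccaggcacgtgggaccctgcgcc
P2ry13 promoter, chr3:59210883-59211132, minus strand: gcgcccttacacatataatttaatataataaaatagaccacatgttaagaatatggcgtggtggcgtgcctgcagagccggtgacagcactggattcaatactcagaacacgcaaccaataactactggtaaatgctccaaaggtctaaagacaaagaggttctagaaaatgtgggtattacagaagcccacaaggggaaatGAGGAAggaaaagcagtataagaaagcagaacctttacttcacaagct
P2ry12 promoter, chr3:59262986-59263235, minus strand: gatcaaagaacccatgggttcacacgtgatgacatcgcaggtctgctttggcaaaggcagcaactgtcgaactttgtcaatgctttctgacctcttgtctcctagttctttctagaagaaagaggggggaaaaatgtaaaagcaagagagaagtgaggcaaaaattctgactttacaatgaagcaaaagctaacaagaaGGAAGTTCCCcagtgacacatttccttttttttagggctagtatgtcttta
P2rx4 promoter, chr5:122707294-122707543, plus strand: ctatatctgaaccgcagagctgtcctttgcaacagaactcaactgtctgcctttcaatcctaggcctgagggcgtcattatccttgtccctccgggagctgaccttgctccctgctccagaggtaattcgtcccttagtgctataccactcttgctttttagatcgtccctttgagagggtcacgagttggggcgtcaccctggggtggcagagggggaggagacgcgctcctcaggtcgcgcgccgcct
Entpd1 promoter, chr19:40659520-40659769, plus strand: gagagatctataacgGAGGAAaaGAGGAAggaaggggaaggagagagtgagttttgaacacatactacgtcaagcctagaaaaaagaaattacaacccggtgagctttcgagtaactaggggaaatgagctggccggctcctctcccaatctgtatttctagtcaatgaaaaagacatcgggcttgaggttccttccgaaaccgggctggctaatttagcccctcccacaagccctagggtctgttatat

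P2ry13 held 1 match to GAGGAA, 43 to 48 bases before its start, and Entpd1 held 2, the nearer one 222 to 227 bases before its start. Both strands were searched, and 23.3% of 32851 promoters of this length hold GAGGAA. The P2ry12 window held 1 match to the NF-kB motif on its opposite strand, 42 to 51 bases before the start, a motif present in 7.25% of promoters. The P2ry2 and P2rx4 windows held none of the motifs searched. These were the PU.1 core, TGANTCA for AP-1 (6.75% of promoters), TGACGTCA for CRE (1.55%), the interferon response element core (2.98%) and the NF-kB motif. A match is only a match of letters and not evidence of binding. The promoters differed in base composition, with 71.2% G and C in P2ry2, 41.6% in both P2ry13 and P2ry12, 57.2% in P2rx4 and 47.2% in Entpd1. Of the 9 genes, 8 had a promoter in the table, and P2ry6 was the other.

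P2ry2, the receptor for ATP and UTP, was the 1 member that rose. Its counts scaled to a common library size (normalised counts) were 89.7 and 92.9 in the LPS libraries, against 47.8 and 47.3 in the controls. Both LPS libraries lay above both control libraries, as they did for 21.4% of all records tested, and the values within each group were close. The fold was 1.92 (log2 fold change 0.94, SE 0.24, 95% interval 0.40 to 1.48), with an adjusted p of 0.0481 in edgeR's quasi-likelihood test over all 6981 records tested. In that test 5.53% of records were called, 3.82% higher and 1.7% lower after LPS. In bulk RNA, more cells expressing a gene and more RNA per cell cannot be told apart. The size of the rise moved little over 15 other settings, from 0.87 to 0.97 on the log2 scale, but the call was lost under 7 of them, with an adjusted p of 0.0516 with median-of-ratios factors, 0.0686 with upper-quartile factors, 0.0519 in limma-voom, 0.246 by DESeq2's Wald test, 0.0703 when only records averaging 50 or more were fitted, 0.415 without LPS replicate 1 and 0.49 without LPS replicate 2. With trends on GC content and transcript length removed the adjusted p was 0.0073.

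**Figure D1:**
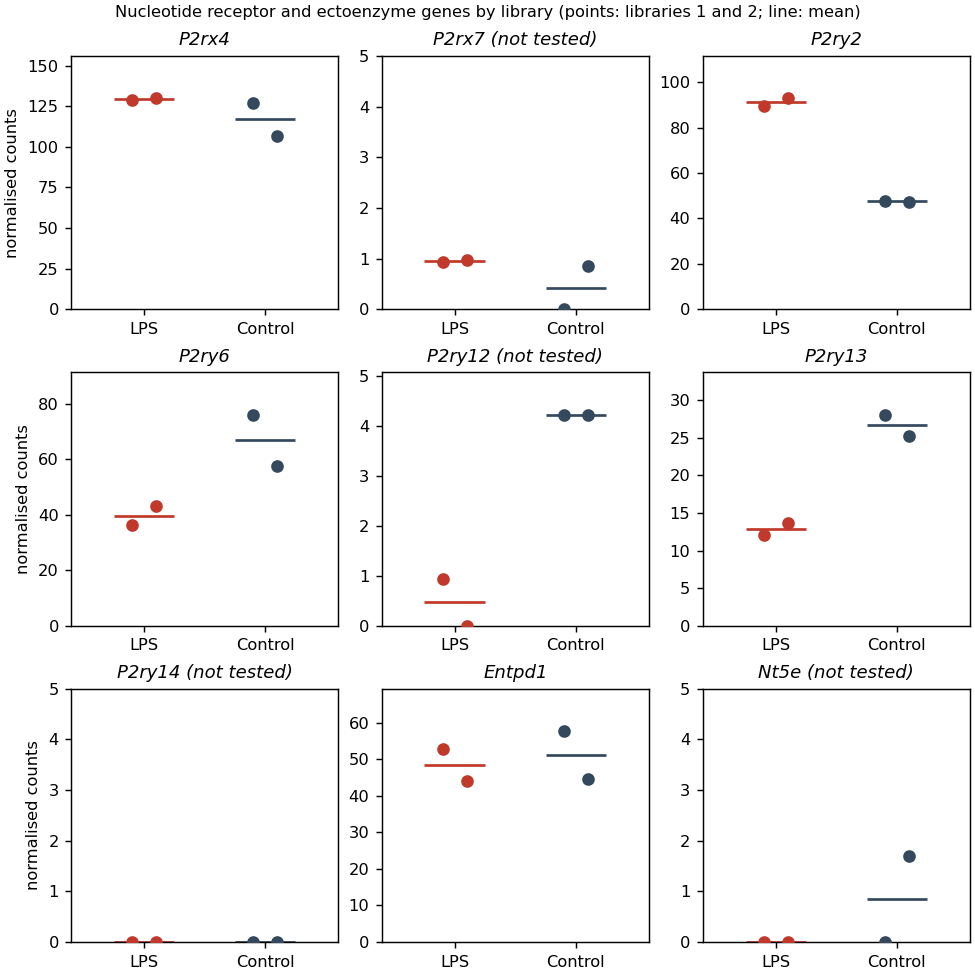
Normalised counts of the 9 nucleotide receptor and ectoenzyme genes in each library, LPS left and control right, with points for libraries and lines for group means. P2ry2 sits at 89.7 and 92.9 after LPS, above 47.8 and 47.3 in controls, while the 4 genes marked as not tested stay below 5 in every library.

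P2ry6, the UDP receptor, had 36.1 and 43 normalised counts in LPS libraries and 76 and 57.4 in controls. Both LPS libraries lay below both controls, as they did for 21.9% of all records tested, and the control libraries were far apart. The fold of 0.601 (log2 fold change -0.73, SE 0.28, interval -1.34 to -0.12) did not pass the test, with an adjusted p of 0.212 in edgeR's quasi-likelihood test. It did pass in 3 of 15 other settings. Without control replicate 2 the log2 fold change was -0.94 with an adjusted p of 0.0098, and removing the GC and length trends gave -0.76 at an adjusted p of 0.0404, or 0.0123 with the replicate block as well.

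P2ry13, an ADP receptor gene, had 12 and 13.7 normalised counts in LPS libraries and 28.1 and 25.3 in controls. Both LPS libraries lay below both controls, as they did for 21.9% of all records tested. The counts themselves were small, at 13 and 14 after LPS and 20 and 30 in controls. The fold of 0.487 (log2 fold change -1.04, SE 0.36, interval -1.84 to -0.24) did not pass the test, with an adjusted p of 0.166 in edgeR's quasi-likelihood test. P2ry13 did pass in 2 of 14 other settings. With the GC and length trends removed the log2 fold change was -1.17 with an adjusted p of 0.0468, and -1.21 with 0.0124 when the replicate block was added. By DESeq2's Wald test it was -1.05 with an adjusted p of 0.832. Its transcript has 44.7% G and C, against 55.9% for P2ry6 and 56.5% for P2ry2.

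P2ry12, the ADP receptor widely used as a marker of homeostatic microglia, was near the detection limit in BV-2 cells. It had 1 and 0 counts in LPS libraries and 3 and 5 in controls, below the level needed for the test. Summed over groups, 1 count after LPS and 8 in controls gave a rate ratio of 0.113 with an exact 95% interval of 0.00254 to 0.84 from counting error alone. Without the filter on low counts its unadjusted p was 0.0372 and its adjusted p 0.377 in edgeR's quasi-likelihood test. An exon of P2ry12 overlaps Med12l on the opposite strand, a Mediator subunit gene with 1 and 1 counts after LPS and 1 and 6 in controls. The strand setting of the counting is not given in the sources used here, so reads from the overlap cannot be assigned to one of the genes.

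P2ry14, the UDP-glucose receptor gene, had 0 counts on all 8 of its records in every library. A count of 0 allows up to 3 counts in a library, which is 0.891 and 0.973 CPM in the LPS libraries and 1.08 and 0.981 CPM in the controls. P2ry12, P2ry13 and P2ry14 lie close together on the minus strand of chromosome 3, in 59216271 to 59262985, 59207892 to 59210882 and 59114623 to 59153492, all overlapping the span of Med12l. P2ry13 and P2ry12 are 5.4 kb apart with no gene between them. Of the 3 receptors, P2ry13 was the only one with enough counts to be tested.

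P2rx4, an ATP-gated cation channel gene studied in microglia for its part in nerve injury pain, had the highest level of the tested members. It had 129 and 130 normalised counts in LPS libraries and 127 and 107 in controls. The LPS libraries lay just above the controls, by less than the controls differed from each other. Both LPS libraries lay above both controls for 21.4% of all records tested. The log2 fold change was 0.16 (SE 0.21, interval -0.31 to 0.63, adjusted p 0.864 in edgeR's quasi-likelihood test), so the fit leaves room for a difference of up to 0.63 on the log2 scale.

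P2rx7, the channel that responds to high ATP, had 5 records and almost no counts. Its most abundant record, NM_001038887, had 1 and 1 counts after LPS and 0 and 1 in controls, NM_001284402 had 1 and 1 after LPS and 0 and 0 in controls, and the other 3 records had none. An exon of P2rx7 overlaps Mir8115, a microRNA gene on the same strand. Mir8115 had 1 and 1 counts after LPS and 0 and 1 in controls, the same values as the most abundant P2rx7 record. Whether the same reads were counted for both was not tested. P2rx7 lies 15.2 kb before P2rx4 on the plus strand of chromosome 5 (122643927 to 122692336 and 122707518 to 122729739). Genes with several records had low counts throughout the table: 40.2% of 15857 coding genes with 1 record had a record averaging at least 10 counts, against 7.12% of 2514 with 2 records and 4.58% of 2030 with 3 or more. How reads that fit several records were counted is not given in the sources used here, so the low values of P2rx7 and P2ry14 cannot be told apart from uncounted reads.

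**Figure D2:**
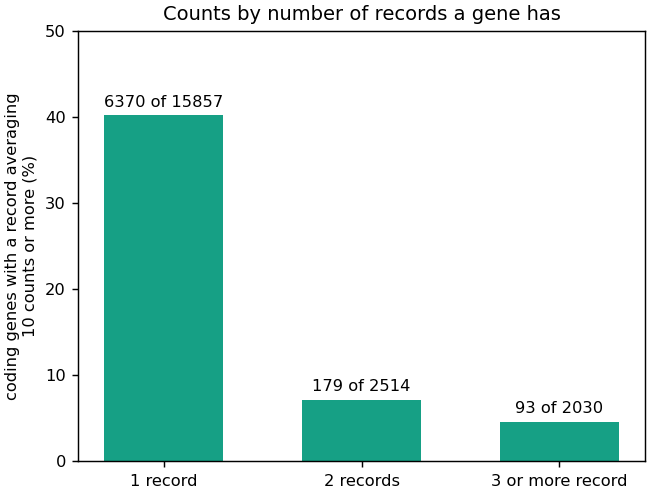
Share of coding genes, in percent, with a record averaging at least 10 counts over the 4 libraries, by the number of records a gene has in the table. The share is 40.2% for genes with 1 record, 7.12% with 2 and 4.58% with 3 or more, the class that holds P2rx7 and P2ry14.

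Entpd1, which encodes the ectoenzyme that degrades ATP and ADP (chromosome 19, 40612366 to 40741602), had 52.7 and 44 normalised counts in LPS libraries and 57.7 and 44.7 in controls. The groups overlapped. Its log2 fold change was -0.06 (SE 0.28, interval -0.67 to 0.55, adjusted p 0.971 in edgeR's quasi-likelihood test), and its sign turned to 0.11 without control replicate 1 and 0.06 without LPS replicate 2. Nt5e, which encodes the enzyme that makes adenosine from AMP (chromosome 9, 88327609 to 88372089), had 0 and 0 counts in LPS libraries and 0 and 2 in controls, at or under the floor of 3 counts in both groups. Nt5e has 1 record, so the count split over records does not bear on it.

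Per kilobase of transcript, the order of the tested members differed between groups. After LPS it was P2rx4 (48 normalised counts per kilobase), P2ry2 (30.3), P2ry6 (20.3), Entpd1 (11.5) and P2ry13 (5.09), and no neighbours in this order overlapped between libraries. In controls it was P2rx4 (43.3), P2ry6 (34.3), P2ry2 (15.8), Entpd1 (12.1) and P2ry13 (10.6), where the libraries of Entpd1 and P2ry13 overlapped. P2ry2 stood above P2ry6 after LPS and below it in controls. The ratio of P2ry2 to P2ry6 counts within a library, which no scaling of libraries can change, was 2.49 and 2.16 in LPS libraries and 0.63 and 0.824 in controls. The ratio of P2ry2 to P2ry13 counts was 7.46 and 6.79 after LPS and 1.7 and 1.87 in controls. Relative to P2rx4 in the same library, P2ry2 counts stood at 0.693 and 0.714 after LPS and 0.378 and 0.441 in controls, and P2ry6 counts at 0.279 and 0.331 after LPS and 0.6 and 0.535 in controls. These ratios are a description and do not say which gene moved. The smallest two-sided p that an exact permutation test of 2 libraries against 2 can give is 0.333. P2ry6 and P2ry2 are neighbours on the minus strand of chromosome 7 (100937630 to 100975498 and 100996568 to 101012053), 21.1 kb apart with no annotated gene between them. The summed level of the 9 genes was 321.4 and 324.6 normalised counts in LPS libraries and 340.8 and 288.5 in controls.

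**Figure D3:**
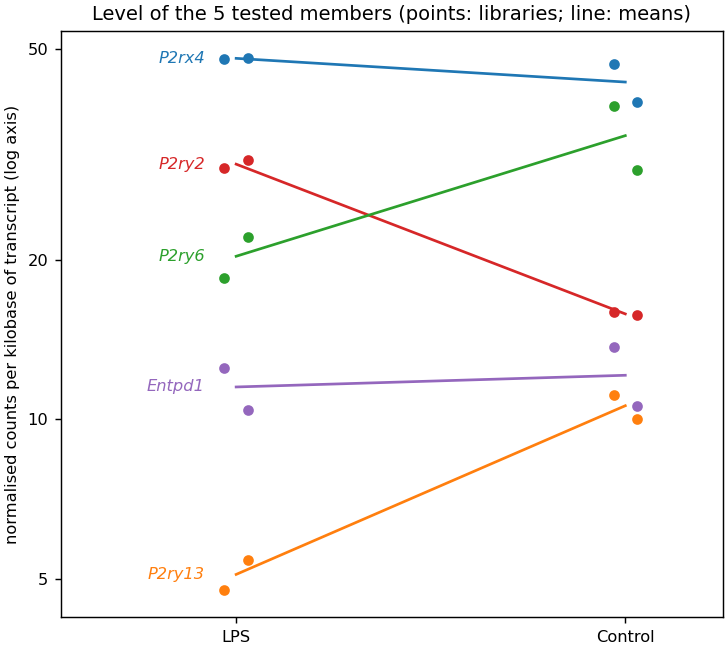
Normalised counts per kilobase of transcript, on a log axis, of the 5 tested members in LPS and control libraries, with points for libraries and lines joining group means. The lines of P2ry2 (30.3 after LPS, 15.8 in controls) and P2ry6 (20.3 after LPS, 34.3 in controls) cross, while P2rx4 stays highest.

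Likeness of pattern was measured by the root mean square distance of centred log2 normalised counts over the 4 libraries, among 4095 tested records averaging 50 or more. The nearest to P2ry2 were Riox2 and Mllt11, both at 0.022, and 22 records lay within 0.1. Mllt11 had 90.6 and 96.8 normalised counts in LPS libraries and 47.8 and 48.1 in controls. The nearest to P2ry6 were Cdca5 at 0.031 and Plekha2 at 0.045, with 17 records within 0.1. Cdca5 had 92.5 and 108 normalised counts in LPS libraries and 183 and 146 in controls. The nearest to P2rx4 were Napa at 0.0096 and Psmb5 at 0.011, but 492 records lay within 0.1, as P2rx4 differed little between libraries. P2ry13 and Entpd1 had means below 50 and were not ranked.

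The wider purinergic system, comprising 48 other receptor, ectoenzyme, salvage, release and transporter genes, held 1 rise and 1 fall among its tested genes, where 3.82% of all records tested were called higher and 1.7% lower. Of the 48, 28 had counts and 12 were tested, with a median log2 fold change of -0.13, beside -0.01 over all records tested. Of 17 genes with several records 1 was tested, against 11 of 31 with 1 record. Adora2b, the low-affinity adenosine receptor gene, had 128 and 109 normalised counts in LPS libraries and 14.1 and 15.2 in controls. Both LPS libraries were far above both controls, a fold of 7.96 (log2 fold change 2.99, SE 0.29, adjusted p 6.09e-05 in edgeR's quasi-likelihood test), and it stayed past the threshold in all 15 other settings. Its difference was larger than that of any tested member. Slc29a3, a lysosomal nucleoside transporter gene, had 10.2 and 13.7 normalised counts in LPS libraries and 35.2 and 39.7 in controls. It fell to a fold of 0.318 (log2 fold change -1.65, SE 0.35, adjusted p 0.0176), and the call was lost without LPS replicate 1 (adjusted p 0.24), without LPS replicate 2 (0.0514) and by DESeq2's Wald test (0.14).

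**Figure D4:**
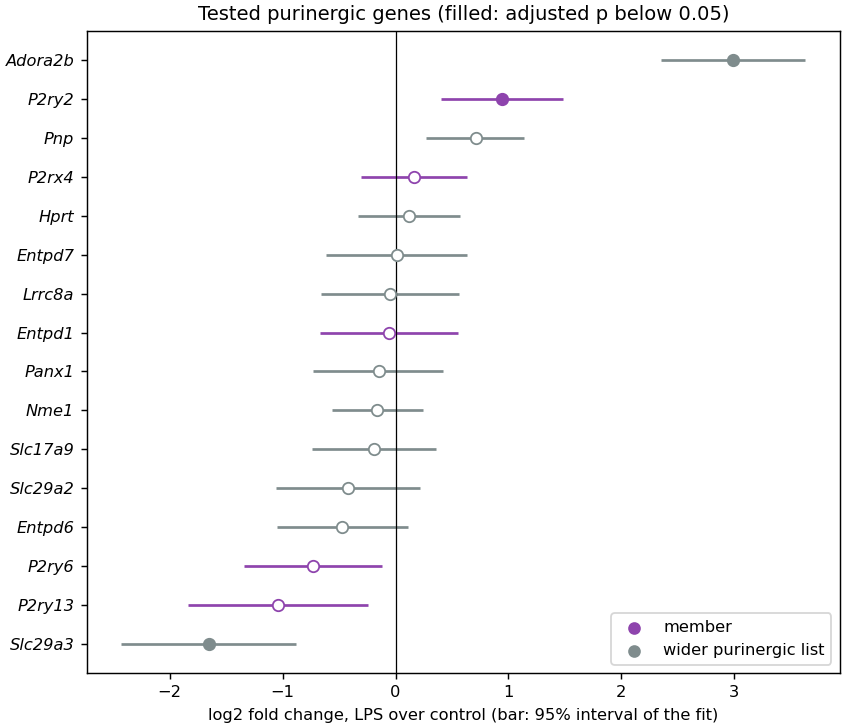
Log2 fold changes of LPS over control with 95% intervals for the 5 tested members and 11 of the 12 tested genes of the wider purinergic list, filled where the adjusted p was below 0.05. Adora2b at 2.99, P2ry2 at 0.94 and Slc29a3 at -1.65 are the filled points.

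Genes of intracellular purine metabolism led the wider list by level per kilobase. Hprt, which salvages hypoxanthine and guanine, had 334 normalised counts per kilobase after LPS and 304 in controls. Nme1, a nucleoside diphosphate kinase gene, had 130 after LPS and 145 in controls on the same scale, and Pnp, the purine nucleoside phosphorylase gene, had 88.3 after LPS and 54.4 in controls. The log2 fold change of Pnp was 0.71 (SE 0.20), with an adjusted p of 0.0722 in edgeR's quasi-likelihood test, which did not pass. Entpd6, an Entpd1 relative, stood at 31.3 after LPS and 44 in controls. The tested genes of channels and transporters through which cells release ATP did not pass: the log2 fold change was -0.15 for Panx1, which encodes pannexin 1, -0.19 for Slc17a9, the vesicular nucleotide transporter gene, and -0.05 for Lrrc8a, a volume-regulated anion channel gene. Panx2 and Gja1 of the same list had 0 counts in every library and were not tested.

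In the P2X7 list, made of inflammasome and interleukin-1 outflow genes, 2 of 7 tested genes rose and none fell. Of the 10 listed genes 3 were not tested, and the median log2 fold change was 0.05. These are RNA levels after LPS, and P2X7 activity was not measured. Over all records tested, 3.82% were called higher and 1.7% lower. Nlrp3, the inflammasome sensor gene, had 523 and 580 normalised counts in LPS libraries and 59.1 and 59.9 in controls, and Il1b was the other. Casp1 had a log2 fold change of 0.05 and Gsdmd of -0.18, neither past the test. Il18 had a log2 fold change of 2.07 and an adjusted p of 0.0682, from 3 and 3 counts in the controls.

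**Figure D5:**
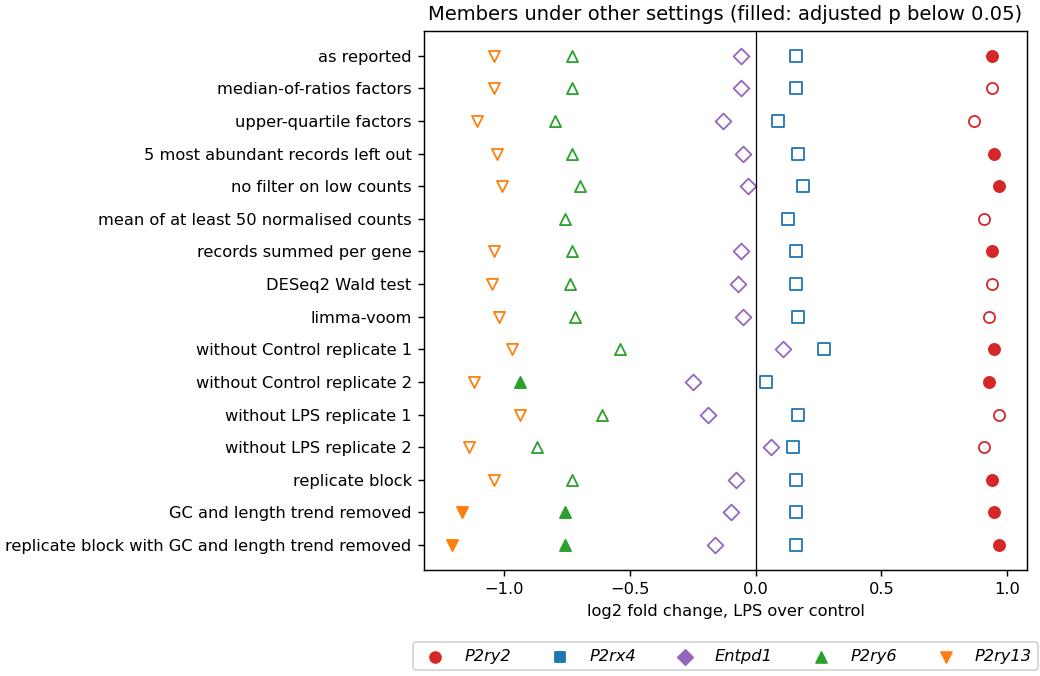
Log2 fold changes of LPS over control of the 5 tested members under the reported setting and 15 others, filled where the adjusted p was below 0.05. P2ry2 stays between 0.87 and 0.97 whether or not it is called, and P2ry6 and P2ry13 stay below 0 in every setting in which they were tested.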

How the data were processed

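The deposited table gives read counts, as whole numbers, for RefSeq transcript records in 4 libraries of rRNA-depleted RNA, sequenced as directional paired ends per the labels' protocols. Its name calls the counts normalised, but column totals differ and no low whole number is missing, so they were taken to be raw. Per the submitters' processing notes, the tools were TopHat2 2.0.10, HTSeq 0.6.1, Cufflinks 2.2.1, Trimmomatic 0.33 and CASAVA 1.8.2, with mm10 as the build and no roles or settings given. RefSeq tables gave a symbol to 32487 of 32915 records, and matched GENCODE M21 transcripts gave lengths and GC content, known for 99.6% of tested records.

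Records were kept by filterByExpr (minimum count 10). LPS was compared with control by edgeR 4.0.16's quasi-likelihood test (R 4.3.3, TMM, no covariates, Benjamini-Hochberg over 6981 records, threshold 0.05), and the script was tested on simulated data. Normalised counts are scaled to the mean effective library size of 3108147. Standard errors and intervals derive from the test's F. DESeq2 1.42.0 and limma 3.58.1 served as alternatives. Members and lists were chosen with earlier results of these data known. Genes named were the members, called genes of the wider and P2X7 lists, the 5 highest wider genes per kilobase and the 2 nearest patterns. Other genes with values, such as Il18, Casp1, Gsdmd, Panx1, Slc17a9, Lrrc8a and markers, were added after their values were seen. The values of 1 listed gene are not reported here. Protein sequences were not analysed here.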

Additional observations from a re-analysis of the deposited data

How the results depend on the processing

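Of 386 calls over all records, the number was 218 when only the 4117 records averaging 50 or more normalised counts were fitted. There were 772 with the GC and length trend removed (437 higher, 335 lower, against 267 and 119), and the range was 222 to 1353 with 1 library left out. Among the 9 members 1 call became 0 with median-of-ratios factors, upper-quartile factors, the minimum mean of 50, the DESeq2 Wald test or limma-voom, 3 with the GC and length trend removed with or without the block, and 0 to 2 with 1 library left out. At an unadjusted p below 0.05, 3 members passed in the reported edgeR test and 1 to 4 in the others, with 1 in DESeq2 and 3 in limma-voom. In the wider purinergic list 2 calls became 1 with the minimum mean of 50 or the DESeq2 Wald test, and 1 to 5 with 1 library left out. Entpd1 reversed to 0.11 without control replicate 1 and 0.06 without LPS replicate 2, with a range of -0.25 to 0.11 when 1 library was left out, never past the threshold. Replicate numbers are shared between groups, but nothing says that they pair the samples, and the deviations of same-numbered libraries correlated at 0.242 over only 2 pairs. With the replicate block 689 records were called, and 1110 with the block and the GC and length trend removed, while 1 member was called with the block alone. The cause of these changes was not tested. For Nt5e a change was not detectable at this depth. None was detectable for P2rx7 and P2ry14 either, whose low values cannot be told apart from uncounted reads. The 9 counts of P2ry12 leave its ratio imprecise.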
